A study of Mus musculus with 8 samples.

Results

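The mitochondrial carrier family Slc25 was examined in GFP-positive cells sorted from mouse kidneys. Its members were all genes named Slc25a followed by a number on array probe sets with a single gene symbol, 44 of the 18193 genes measured. The mice were C57BL/6 animals carrying FSP1-eGFP, a reporter driven by the FSP1 (S100a4) promoter that is often used to mark fibroblasts. All were 6 months old and are given as male. The protocol tells of 5 operated mice, and does not say how many mice gave the control kidneys. The ischemic group held 5 left kidneys with both renal vessels clamped for 45 minutes, taken 3 days after release from mice given buprenorphine at 0.05 mg/kg for pain. The control group held 3 kidneys without ischemia, called normal in the titles and sham in the source names. Cells were sorted by FACS after collagenase digestion, and their RNA was amplified and hybridised to Affymetrix arrays. The comparison asks how the sorted cells of an injured kidney differ from those of an uninjured one. With 5 arrays against 3, array number sets the precision of every value.

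Slc25 proteins sit mostly in the inner mitochondrial membrane, which small charged molecules cannot cross unaided. They exchange ADP for ATP, import phosphate, and move keto acids, amino acids, acylcarnitines, cofactors, iron and glutathione between matrix and cytosol. Kidney tubule cells are rich in mitochondria and use many of these carriers, and blood-derived and connective tissue cells use the widespread ones.

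Some arrays did not match their labels or their group. Xist, the RNA of the inactive X chromosome, was high on ischemic 1 (11.21), ischemic 2 (9.39) and normal 1 (11.01) and between 4.49 and 4.96 on the other 5 arrays, although all mice are labelled male. Levels are given as log2(intensity + 16), on which an intensity of 1 is 4.09. Eif2s3y, a gene of the Y chromosome, was at 5.84 on both ischemic 1 and normal 1 and between 7.68 and 8.87 on the other 6, so that ischemic 2 carried both signals. Lymphocyte markers followed the same split. The summed intensity of 6 B cell markers was 2598, 880 and 502 on ischemic 1, ischemic 2 and normal 1 and between 98.6 and 163 on the other 5 arrays, and that of 8 T and NK cell markers was 1963, 659 and 1144 against 116 to 387. Values within a class of Xist signal are therefore also values within a class of lymphocyte signal, and the part of these cells was not tested. Across genes, ischemic 1 was also the least like the rest, its correlation with them having a median of 0.753, against 0.850 to 0.913 for the other 7. S100a4 was bright on every array (11.30 to 12.22), whereas macrophage markers were bright as well and 10 of 18 fibroblast markers reached the median level of all genes. Results are therefore also given within the 5 arrays of low Xist signal, which leaves 3 ischemic and 2 normal arrays, and within the 3 of high signal, which leaves 2 ischemic and 1 normal.

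The promoters of the 3 members with the lowest unadjusted p, Slc25a13, Slc25a48 and Slc25a39, are shown as the sequence before each gene's start. They are RefSeq sequences of build GRCm38.p6, 250 bases each, written 5′ to 3′ on the gene's strand, at chr6:6217174-6217423 (minus strand), chr13:56438105-56438354 (plus strand) and chr11:102407518-102407767 (minus strand). Capitals mark a CCAAT box (CCAAT) or an E-box (CACGTG), both searched on both strands.
Slc25a13: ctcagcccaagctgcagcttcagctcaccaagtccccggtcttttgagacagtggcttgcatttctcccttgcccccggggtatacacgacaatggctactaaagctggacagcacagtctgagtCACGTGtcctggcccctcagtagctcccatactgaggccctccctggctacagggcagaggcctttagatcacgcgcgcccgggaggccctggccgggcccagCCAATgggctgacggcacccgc
Slc25a48: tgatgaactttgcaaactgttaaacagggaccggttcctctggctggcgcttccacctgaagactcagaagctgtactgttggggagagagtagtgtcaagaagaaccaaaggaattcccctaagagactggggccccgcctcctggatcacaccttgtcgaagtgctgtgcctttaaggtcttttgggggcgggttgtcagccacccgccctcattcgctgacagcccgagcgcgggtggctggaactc
Slc25a39: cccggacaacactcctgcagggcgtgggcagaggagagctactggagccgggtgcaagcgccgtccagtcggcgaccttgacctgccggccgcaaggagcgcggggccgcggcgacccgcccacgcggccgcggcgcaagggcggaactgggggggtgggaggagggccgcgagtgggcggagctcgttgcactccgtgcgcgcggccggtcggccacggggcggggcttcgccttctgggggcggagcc
The stretch of Slc25a13 held 1 match to each of these motifs, and those of Slc25a48 and Slc25a39 held none. Base composition differed, with G or C at 62.8% of positions for Slc25a13, 56.4% for Slc25a48 and 77.2% for Slc25a39. RefSeq promoter entries were matched for 34 of the 44 members, with 43 entries in all. A CCAAT box was in 46.5% of these 43 entries, against 33.8% of all 32851 entries of that length. An E-box was in 18.6% against 6.02%, in 7 members (Slc25a1, Slc25a13, Slc25a14, Slc25a15, Slc25a31, Slc25a33 and Slc25a36). The letters TCAAGGTCA, bound by estrogen-related receptors, were in none of the 43 entries and in 0.387% of all entries. Members with several starts count more than once, and a match is only a description of these letters.

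Most Slc25 carriers had lower values in the cells from ischemic kidneys, but no member passed the test across all genes. The difference, ischemic minus normal, was below 0 in 36 of 44 members (81.8%), where 45.2% of all genes were below 0. With each array left out in turn, 21 members stayed below 0 every time, 4 stayed above 0, and 19 took both signs. The median difference of the members was -0.32, against 0.041 over all genes. With limma and Benjamini-Hochberg adjustment over all genes, 0 of 44 members had an adjusted p under 0.05, as did 0% of all genes. At an unadjusted limma p under 0.05, 6 members were lower (13.6%, against 5.02% of all genes) and 1 was higher (2.27%, against 2.11%). The groups did not overlap in 5 members, all lower in ischemia (11.4%, against 3.44% of all genes lower and 1.89% higher), namely Slc25a13, Slc25a15, Slc25a30, Slc25a39 and Slc25a48. A difference of -1 or lower was seen in 8 members, and 5.89% of all genes had one. When ribosomal protein genes set the scale of each array, not quantiles, 14 members were lower and 0 higher at an unadjusted limma p under 0.05. With that scale 7.89% of all genes were lower, and the median of all genes was -0.080. The ribosomal protein genes were themselves mostly higher in ischemia on the quantile scale, 36 of 46 with a median of 0.21. Setting them equal between arrays therefore lowers the differences of other genes. The members' median was -0.14 within the arrays of low Xist signal and -0.59 within those of high signal.

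**Figure D1:**
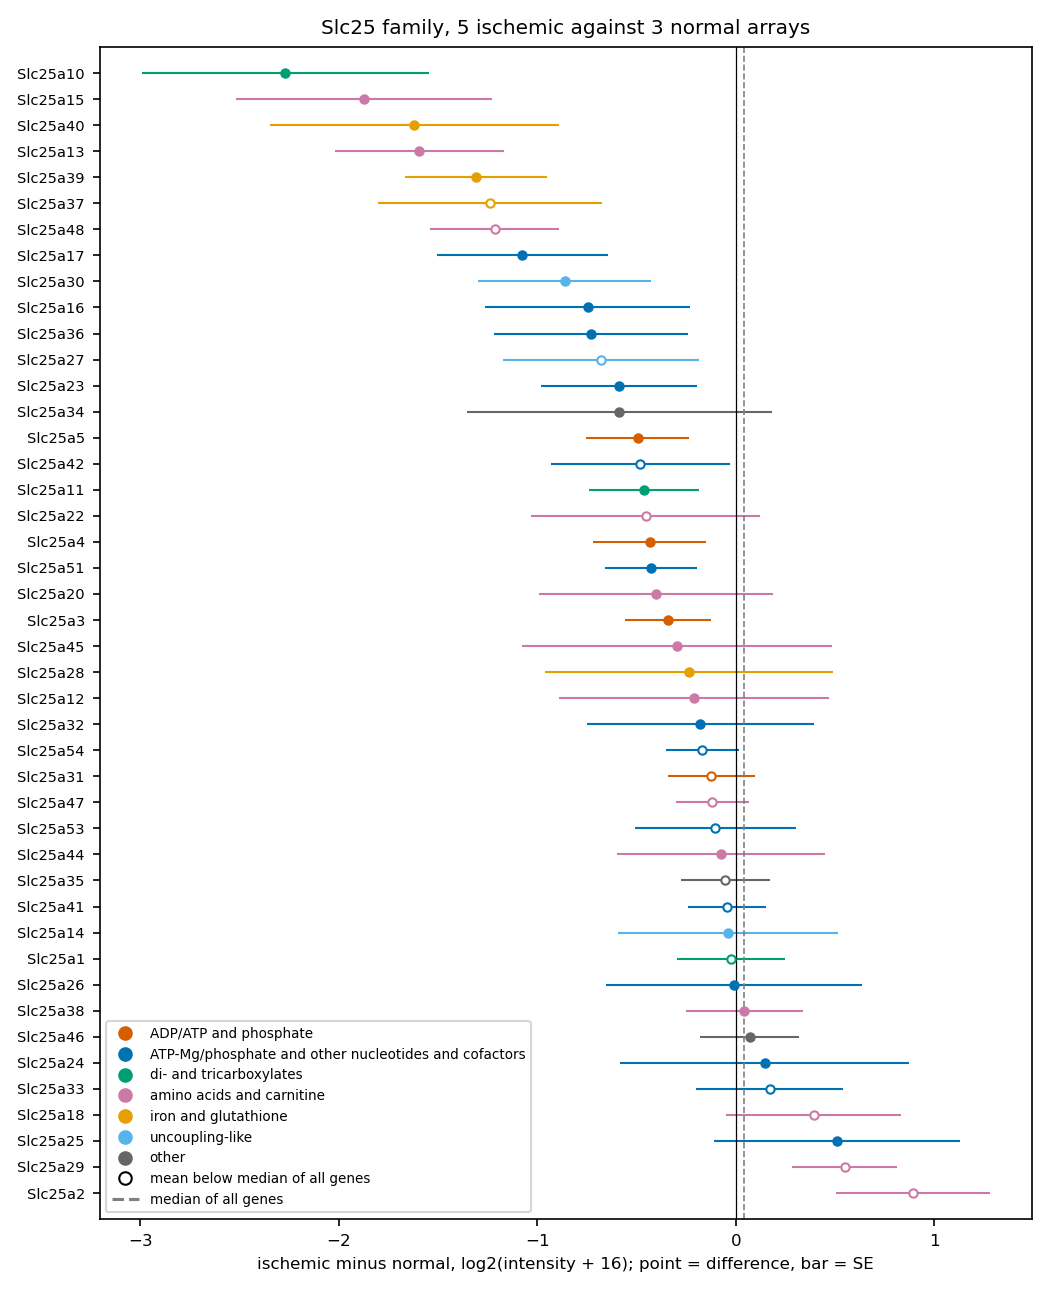
Difference between 5 ischemic and 3 normal arrays for each of the 44 Slc25 members, on the log2(intensity + 16) scale, with points for the difference, bars for its SE, colours for the substrate group and open points for members below the median level of all genes. Points run from -2.27 (Slc25a10) to 0.89 (Slc25a2), and 36 of 44 lie left of 0.

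The 4 carriers of adenine nucleotides and phosphate, which feed ATP synthesis, all had negative differences, with a median of -0.39, but none had an unadjusted limma p under 0.05 or groups apart. Slc25a3, which imports the phosphate used by ATP synthase, was at 9.93, 9.97, 10.41, 9.91 and 10.40 on ischemic arrays 1 to 5 and at 10.54, 10.36 and 10.51 on normal arrays 1 to 3. Ischemic 3 and 5 lay within the normal range and the other 3 ischemic arrays below it. Its difference was -0.34 ± 0.22 (SE, n = 5 and 3; limma adjusted p = 0.875). Slc25a4, the ADP/ATP exchanger of heart, muscle and other tissues, was at 9.03, 9.60, 9.69, 9.62 and 9.60 in ischemic and at 10.53, 9.56 and 9.74 in normal arrays. Ischemic 1 was the low array and normal 1 the high one, and the rest overlapped. The difference of -0.43 ± 0.28 (SE, n = 5 and 3; limma adjusted p = 0.888) was -0.14 without normal 1 and -0.012 within the arrays of low Xist signal, against -1.22 within those of high signal. Slc25a5, the ADP/ATP exchanger of dividing and many other cells, was at 9.33, 9.53, 10.09, 9.49 and 9.73 in ischemic and at 10.53, 9.84 and 10.02 in normal arrays. Only ischemic 3 reached the normal range. The difference was -0.49 ± 0.26 (SE, n = 5 and 3, limma adjusted p = 0.795), and -0.29 without normal 1. It was -0.16 within the arrays of low Xist signal and -1.09 within those of high signal. Slc25a31, an ADP/ATP exchanger of germ cells, was near the floor of the scale in both groups, between 4.13 and 4.81.

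Carriers of di- and tricarboxylates exchange malate, succinate, oxoglutarate and citrate across the membrane and link the citric acid cycle to gluconeogenesis and lipid synthesis. Slc25a10, the dicarboxylate carrier, had the lowest difference of the family. It was at 4.71, 6.75, 5.79, 4.57 and 5.18 in ischemic and at 8.07, 8.95 and 5.98 in normal arrays. Normal 1 and 2 were above every ischemic array, and normal 3 was below ischemic 2. The difference was -2.27 ± 0.72 (SE, n = 5 and 3), 4.82-fold on this scale, with a limma adjusted p of 0.415, and was -2.29 within the arrays of low and -2.35 within those of high Xist signal. A second probe set of the gene, near the floor, differed by -0.17. Slc25a11, the oxoglutarate carrier of the malate-aspartate shuttle, differed by -0.46 ± 0.28 (SE, n = 5 and 3; limma adjusted p = 0.860), with ischemic arrays from 6.81 to 7.94 and normal arrays from 7.79 to 8.16. Slc25a1, the citrate carrier, was dim and overlapped fully, from 4.74 to 5.49 in ischemic and from 4.75 to 5.62 in normal arrays.

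Among the 13 members grouped here as amino acid and carnitine carriers, 9 had negative differences and 4 positive ones. The grouping was made from a list, and substrates were not measured. At an unadjusted limma p under 0.05 Slc25a13, Slc25a15 and Slc25a48 were lower and Slc25a2 was higher. Slc25a13 (citrin) exports aspartate in exchange for glutamate. It was at 5.44, 6.39, 6.42, 4.83 and 5.57 in ischemic and at 7.67, 7.61 and 6.69 in normal arrays, with every ischemic array below every normal one. The difference of -1.59 ± 0.43 (SE, n = 5 and 3), 3.02-fold, had a limma unadjusted p of 0.00514 and an adjusted p of 0.279. Within the arrays of low Xist signal it was -1.54 and within those of high signal -1.75. Slc25a12 (aralar), the other aspartate and glutamate exchanger, was spread widely, from 4.67 to 7.61 in ischemic and from 6.17 to 7.36 in normal arrays. Its difference was -0.21 ± 0.68 (SE, n = 5 and 3; limma adjusted p = 0.973) and became 0.31 without ischemic 1.

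Slc25a15, the ornithine carrier that serves the urea cycle and polyamine supply, was at 5.62, 7.02, 7.49, 6.04 and 6.54 in ischemic and at 10.03, 7.50 and 7.71 in normal arrays. The groups were apart by a hair, since ischemic 3 and normal 2 nearly coincided, and normal 1 was far above the rest. The difference of -1.87 ± 0.65 (SE, n = 5 and 3; limma adjusted p = 0.498) was -1.06 without normal 1. It was -0.92 within the arrays of low Xist signal and -3.72 within those of high signal. Its second probe set, dimmer, differed by -1.55 with the groups apart as well. Slc25a48 was at 4.99, 4.92, 4.91, 5.51 and 4.85 in ischemic and at 6.98, 6.14 and 5.62 in normal arrays. All ischemic arrays were below all normal arrays, and all but ischemic 4 lay close together. The difference was -1.22 ± 0.33 (SE, n = 5 and 3, limma unadjusted p = 0.00526, adjusted p = 0.281), and -0.85 without normal 1. It was -0.79 within the arrays of low Xist signal and -2.03 within those of high signal. This gene was dim, with a mean below the median level of all genes (5.93), and its 2 other probe sets differed by 0.61 and -0.54.

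Slc25a20 brings acylcarnitines into the matrix for fatty acid oxidation. It was at 6.29 on ischemic 1, between 8.16 and 8.78 on the other ischemic arrays, and at 8.73, 7.53 and 8.95 in normal arrays. The groups overlapped, with a difference of -0.40 ± 0.59 (SE, n = 5 and 3, limma adjusted p = 0.962) that was 0.027 without ischemic 1. A second bright probe set of Slc25a20 was at -0.86, also with groups that overlapped. Slc25a38, a glycine carrier needed for heme synthesis, was at 7.18, 6.26, 6.06, 6.28 and 6.16 in ischemic and at 6.13, 6.40 and 6.51 in normal arrays. Ischemic 1 was the high array, and the others overlapped. Its difference was 0.043 ± 0.29 (SE, n = 5 and 3; limma adjusted p = 0.989) and was -0.061 with array medians as the reference and -0.16 with ribosomal protein genes as the reference. The highest differences of the family were in Slc25a2 and Slc25a29, both dim. Slc25a2, which carries ornithine and related amino acids, was at 6.51, 5.88, 4.76, 5.84 and 5.41 in ischemic and at 4.87, 5.09 and 4.40 in normal arrays, so that 4 of 5 ischemic arrays were above all normal ones. The difference was 0.89 ± 0.39 (SE, n = 5 and 3; limma unadjusted p = 0.0485, adjusted p = 0.698). Slc25a29, a carrier of arginine and lysine, differed by 0.55 ± 0.26 (SE, n = 5 and 3, limma adjusted p = 0.749). Its other probe sets, all dimmer, were at 0.071, -0.22, -0.14 and -0.018. With the mean of all its probe sets the difference was 0.048. The glutamate carrier Slc25a18 was at 0.39 ± 0.44 (SE, n = 5 and 3; limma adjusted p = 0.954), with groups that overlapped. The glutamate carrier Slc25a22, the branched-chain amino acid carrier Slc25a44, and Slc25a45 and Slc25a47 had negative differences with overlapping groups, none past the test. A second bright probe set of Slc25a44 was at 0.91, against -0.075 for the main one, and Slc25a45 was at 0.30 without normal 1, against -0.30 with all arrays.

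**Figure D2:**
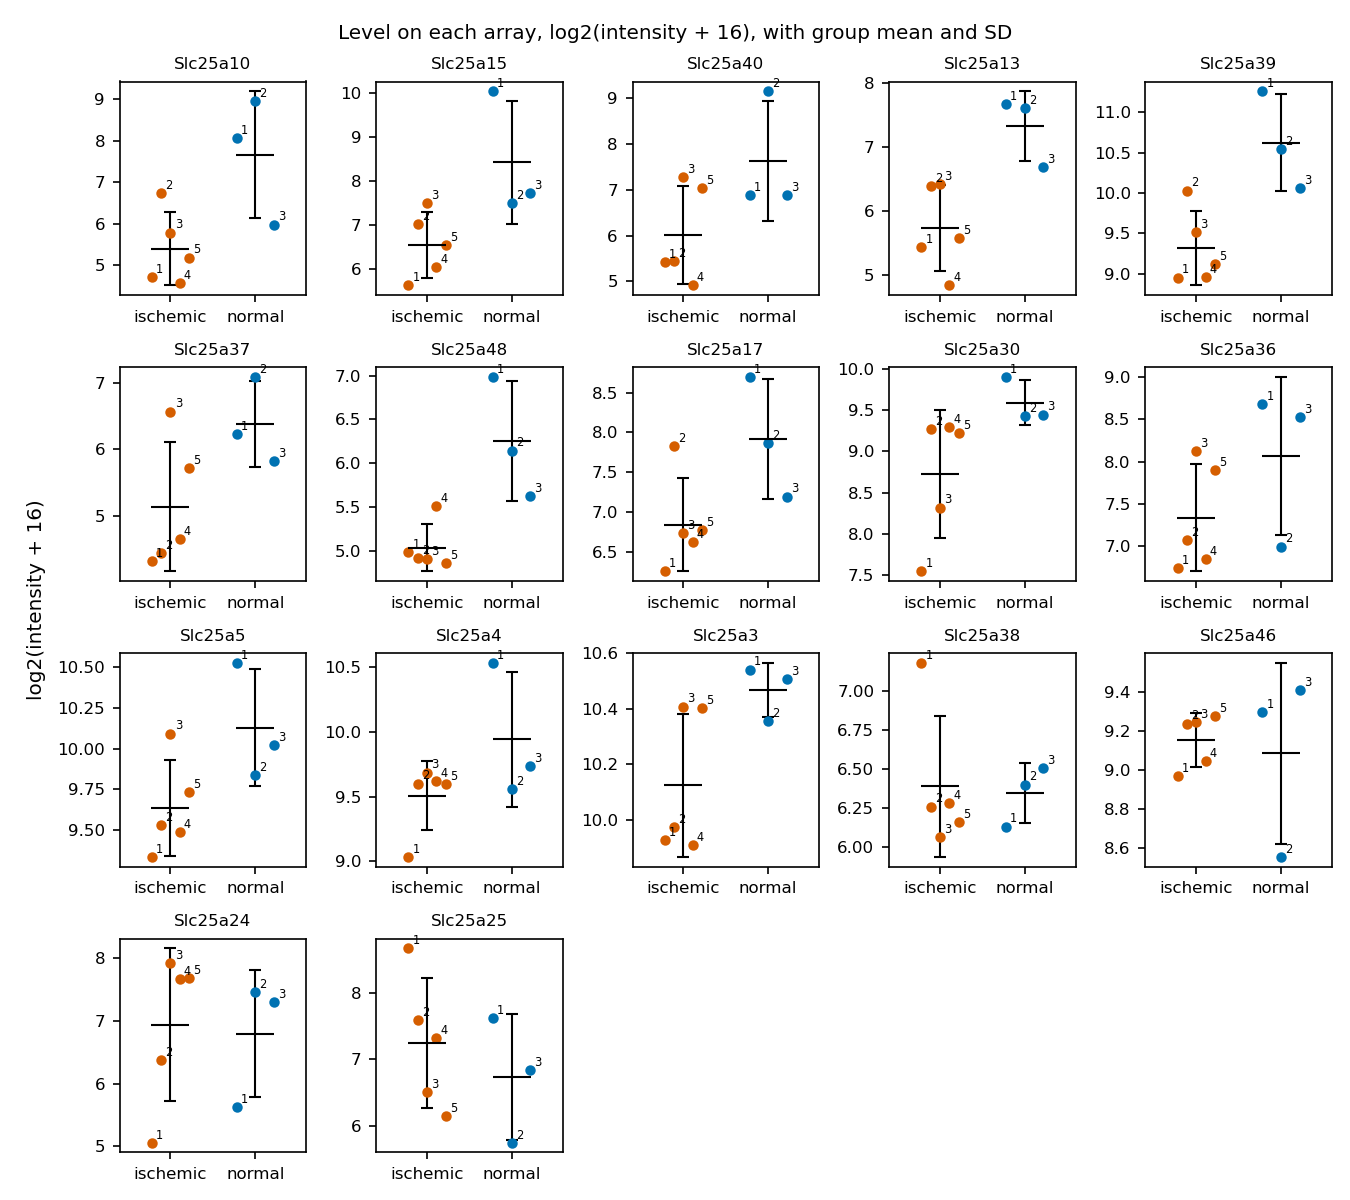
Level on each array, in log2(intensity + 16), of the 17 members given array by array, with the array number beside each point and the group mean and SD as black bars, on axes that differ between panels. In Slc25a13, Slc25a39, Slc25a48, Slc25a15 and Slc25a30 every ischemic array lies below every normal array.

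The iron and glutathione carriers were lower in all 4 measured members, with a median of -1.27, 1 of them at an unadjusted limma p under 0.05 and 0 at an adjusted one. Slc25a39, which carries glutathione into the matrix, was at 8.95, 10.03, 9.52, 8.95 and 9.12 in ischemic and at 11.26, 10.55 and 10.06 in normal arrays. Each ischemic array was below each normal array, and ischemic 2 was only just below normal 3. The difference of -1.31 ± 0.36 (SE, n = 5 and 3), 2.48-fold, had a limma unadjusted p of 0.00584 and an adjusted p of 0.299. It was -1.11 within the arrays of low and -1.77 within those of high Xist signal. Its close relative Slc25a40 was at 5.41, 5.45, 7.27, 4.91 and 7.05 in ischemic and at 6.88, 9.15 and 6.88 in normal arrays. Ischemic 3 and 5 were above normal 1 and 3, and normal 2 was far above all others. The difference of -1.62 ± 0.73 (SE, n = 5 and 3; limma adjusted p = 0.719) was -0.85 without normal 2. Slc25a37 (mitoferrin-1) imports iron for heme and iron-sulfur clusters. Its levels were 4.33, 4.44, 6.57, 4.65 and 5.72 in ischemic and 6.23, 7.09 and 5.82 in normal arrays, with ischemic 3 inside the normal range. The difference was -1.24 ± 0.56 (SE, n = 5 and 3; limma adjusted p = 0.727). Slc25a28 (mitoferrin-2), the iron importer of most other cells, ranged from 4.61 (ischemic 1) to 8.43 (ischemic 4), while the normal arrays lay between 6.77 and 6.91. Its difference of -0.24 ± 0.72 (SE, n = 5 and 3; limma adjusted p = 0.973) was 0.26 without ischemic 1 and 0.63 within the arrays of low Xist signal. Developing red cells use these carriers heavily, and erythroid markers were measured too. The summed intensity of 5 measured erythroid markers of 9 listed ran from 82.0 to 189 in ischemic and from 192 to 542 in normal arrays, and only Slc4a1 reached the median level of all genes. The list did not share a direction, with a median difference of 0.089 and 3 of 5 markers above 0 (Klf1 at 0.14, Epb42 at 0.089 and Hba-a1 at 0.34). Slc4a1, the anion exchanger of red cells that collecting duct cells also use, was at -1.50 ± 0.36 and Alas2, the first enzyme of heme synthesis in red cells, at -1.60 ± 0.72 (SE, n = 5 and 3; limma adjusted p = 0.217 and 0.719). Their part in the result was not tested.

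Among the relatives of the uncoupling proteins, Slc25a30, known as kidney mitochondrial carrier protein, was at 7.55, 9.27, 8.32, 9.29 and 9.22 in ischemic and at 9.90, 9.43 and 9.45 in normal arrays. Ischemic 2, 4 and 5 were just below the normal arrays, and ischemic 1 and 3 clearly below. The difference was -0.86 ± 0.44 (SE, n = 5 and 3, limma adjusted p = 0.780) and was -0.57 without ischemic 1. It was -0.49 within the arrays of low Xist signal and -1.50 within those of high signal. Slc25a27 differed by -0.68 ± 0.49 (SE, n = 5 and 3; limma adjusted p = 0.917) and was 0.13 without normal 2, when another probe set became its brightest, and the mean of Slc25a14 was 6.27 ± 0.98 (SD, n = 5) after ischemia and 6.31 ± 0.55 (SD, n = 3) without it.

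The largest group carries nucleotides and cofactors. Of its 14 measured members 11 had negative differences, with a median of -0.17, and the groups overlapped in all 14. Slc25a17, a peroxisomal carrier of coenzyme A and related cofactors, was at 6.26, 7.82, 6.74, 6.62 and 6.78 in ischemic and at 8.70, 7.87 and 7.20 in normal arrays. Ischemic 2 was above normal 3, and the other ischemic arrays were below all normal ones. The difference was -1.07 ± 0.43 (SE, n = 5 and 3; limma unadjusted p = 0.0357, adjusted p = 0.636) and -0.69 without normal 1. Slc25a36, a pyrimidine nucleotide carrier, was at 6.75, 7.07, 8.13, 6.85 and 7.90 in ischemic and at 8.68, 6.996 and 8.52 in normal arrays. Normal 2 lay among the low ischemic arrays, and the difference was -0.73 ± 0.49 (SE, n = 5 and 3; limma adjusted p = 0.893). It was -0.42 without normal 1 and -1.25 without normal 2, and -0.14 within the arrays of low against -1.77 within those of high Xist signal. Slc25a51, the NAD carrier, was bright and tight in ischemia, from 8.89 to 9.20, against 9.94, 9.38 and 9.14 in normal arrays. Its difference was -0.43 ± 0.23 (SE, n = 5 and 3, limma adjusted p = 0.827) and was -0.20 without normal 1 and -0.14 within the arrays of low Xist signal. A second bright probe set of Slc25a51 was at -1.42, with groups that overlapped. Slc25a16 differed by -0.75 ± 0.51 (SE, n = 5 and 3; limma adjusted p = 0.902), and was -0.41 without ischemic 1 and -0.11 within the arrays of low Xist signal.

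The calcium-dependent ATP-Mg/phosphate carriers, which set the matrix pool of adenine nucleotides, did not share a direction. Slc25a24 was at 5.06, 6.39, 7.93, 7.67 and 7.69 in ischemic and at 5.63, 7.47 and 7.30 in normal arrays. Ischemic 1 and normal 1 were the low arrays of their groups, and both had high Xist signal. Its difference was 0.15 ± 0.73 (SE, n = 5 and 3; limma adjusted p = 0.982) and became -0.44 without normal 1. Slc25a25 was at 8.67, 7.58, 6.51, 7.31 and 6.15 in ischemic and at 7.62, 5.74 and 6.84 in normal arrays, with ischemic 1 highest. The difference was 0.51 ± 0.62 (SE, n = 5 and 3; limma adjusted p = 0.954), and was 0.16 without ischemic 1, 0.017 without normal 2 and 0.95 without normal 1. Slc25a23 differed by -0.59 ± 0.39 (SE, n = 5 and 3; limma adjusted p = 0.893). The remaining members of this group (Slc25a26, Slc25a32, Slc25a33, Slc25a41, Slc25a42, Slc25a53 and Slc25a54) had overlapping groups, and 5 of these 7 had a mean below the median level of all genes.

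Of the 3 members outside these groups, Slc25a46, an outer membrane protein of mitochondrial shape, was at 8.97, 9.24, 9.24, 9.04 and 9.28 in ischemic and at 9.29, 8.55 and 9.41 in normal arrays. The ischemic arrays lay within the normal range, with normal 2 lowest. The difference was 0.069 ± 0.25 (SE, n = 5 and 3; limma adjusted p = 0.975), and -0.13 with array medians as the reference or -0.23 with ribosomal protein genes. Slc25a34 and Slc25a35 are both without a settled substrate. Slc25a34 was at 8.23 on ischemic 1, above all normal arrays (5.86 to 7.86). The other ischemic arrays, from 5.16 to 5.67, were below all normal ones. Its difference was -0.59 ± 0.77 (SE, n = 5 and 3, limma adjusted p = 0.954), and was -1.18 without ischemic 1 and 0.059 without normal 1. Slc25a35 was dim and overlapped fully, from 4.19 to 4.76 in ischemic and from 4.25 to 4.75 in normal arrays.

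**Figure D3:**
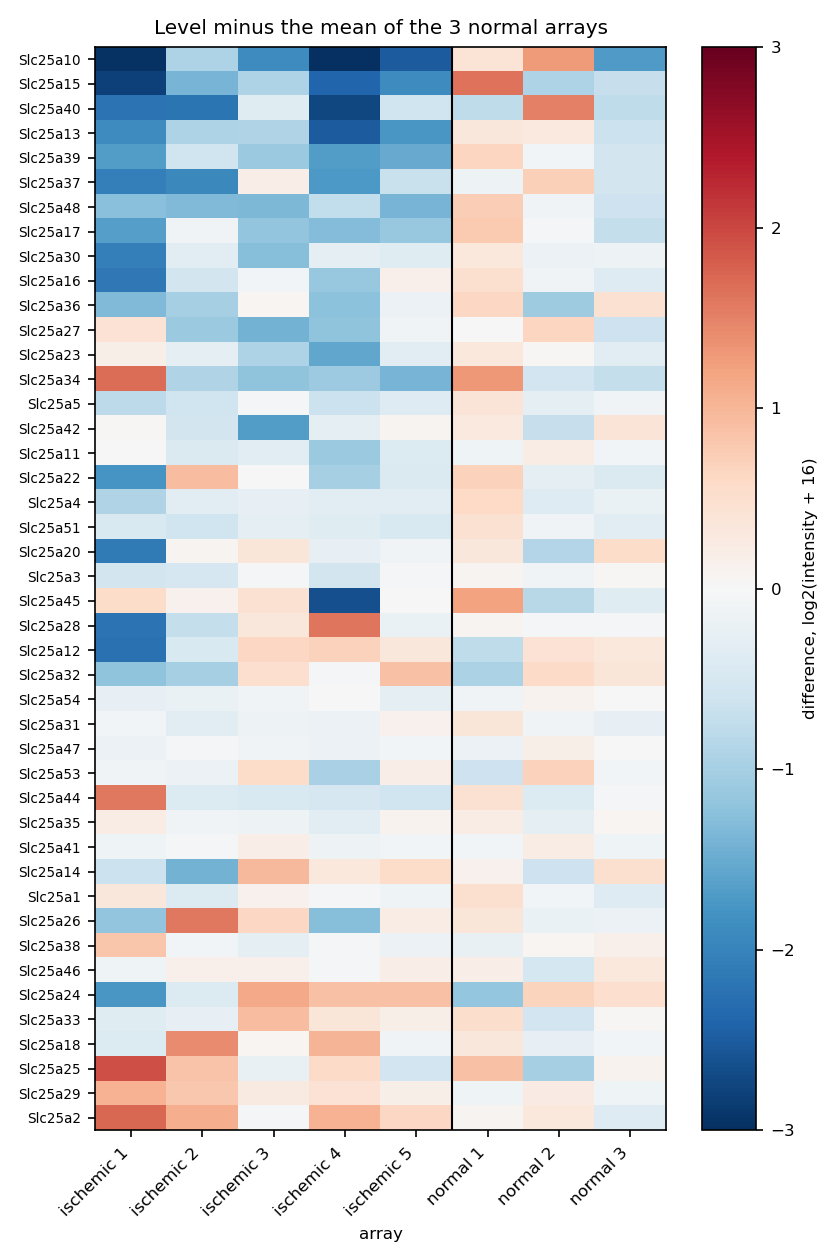
Level of each of the 44 members on each array minus the mean of the 3 normal arrays, on the log2(intensity + 16) scale, with blue for lower and red for higher. Rows are ordered by the difference between groups. Ischemic 1 was the lowest of the 8 arrays in 17 members.

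The arrays contributed unequally. Ischemic 1 was the lowest of the 8 arrays in 17 of 44 members and the highest in 7, and ischemic 4 was the lowest in 11. Normal 1 was the highest in 16. Measured from the normal mean, the median over the members was -0.50 on ischemic 1, -0.41 on ischemic 2, -0.093 on ischemic 3, -0.35 on ischemic 4 and -0.15 on ischemic 5. Among the normal arrays it was 0.32 on normal 1, -0.10 on normal 2 and -0.13 on normal 3, so that normal 2 and 3 were close to ischemic 3 and 5. Without ischemic 1 the median difference of the members was -0.23, and without normal 1 it was also -0.23.

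Levels of different genes cannot be compared on these arrays, but the distance between paralogues on the same array can be followed between groups. In 9 pairs of related carriers the groups overlapped in each, and these distances were not tested. Slc25a10 minus Slc25a11 had a mean of -2.07 ± 0.90 (SD, n = 5) after ischemia and of -0.26 ± 1.41 (SD, n = 3) without it. Slc25a12 minus Slc25a13 was 0.98 ± 1.38 (SD, n = 5) and -0.40 ± 1.03 (SD, n = 3). Slc25a4 minus Slc25a5 was -0.13 ± 0.23 (SD, n = 5) and -0.19 ± 0.17 (SD, n = 3), so the distance between the ADP/ATP exchangers hardly differed.

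Probe sets of 1 gene did not always tell the same story. Of the 44 members 23 had more than 1 probe set. For Slc25a39 the 4 probe sets at or above the median level lay between -1.86 and -0.56, and 3 of them had groups apart. Those of Slc25a30 lay between -2.07 and -0.13, with 3 of 4 apart, and all were negative. The 3 bright probe sets of Slc25a4 were at -0.43, -0.64 and -0.77, and in the latter pair the groups did not overlap. For Slc25a5, 6 of 7 were negative and 1 was at 0.14. For Slc25a36 the brightest was at -0.73 and the others at 0.12 and 0.38, and for Slc25a25 they were at 0.51 and -0.75. Many of these probe sets carry the suffix x, a or s, by which the maker marks sets that can also match other transcripts or several transcripts of 1 gene.

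**Figure D4:**
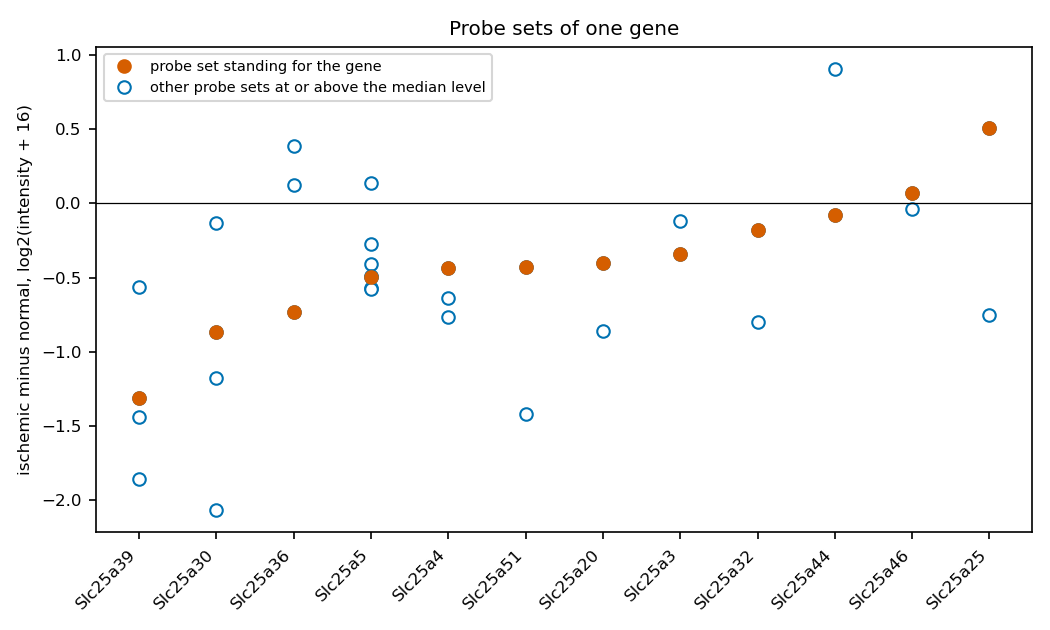
Ischemic minus normal difference, in log2(intensity + 16), of every probe set at or above the median level for the 12 members with more than 1 such set, with the set that stands for the gene filled. The sets lie wholly below 0 in 7 members, among them Slc25a39, Slc25a30 and Slc25a4, and on both sides of 0 in the other 5, among them Slc25a36 and Slc25a25.

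Other mitochondrial genes were compared from lists chosen by function, and 0 genes of any of them passed limma's adjusted p. Their counts are to be read against all genes, of which 45.2% were negative. At an unadjusted limma p under 0.05, 5.02% of all genes were lower and 2.11% higher. Citric acid cycle genes had a median of -0.67, with 17 of 20 negative, 5 lower and 0 higher at an unadjusted p under 0.05. Their brightest members were Sdha, a subunit of succinate dehydrogenase, at -0.79 ± 0.27 (SE, n = 5 and 3; limma adjusted p = 0.495) and Mdh2, mitochondrial malate dehydrogenase, at -0.39 ± 0.31 (SE, n = 5 and 3; limma adjusted p = 0.927). The ATP synthase list, partners of Slc25a3, Slc25a4 and Slc25a5, held subunits and the inhibitory factor Atpif1. It had a median of -0.54 with 14 of 15 genes negative and 3 lower at that level. The brightest were Atp5a1 at -0.57 ± 0.24 and Atp5h at -0.40 ± 0.19 (SE, n = 5 and 3). Genes of the carnitine shuttle, which supplies Slc25a20, had a median of -0.96 over 6 genes, of which 2 were lower, and included Cpt1a, which makes acylcarnitines at the outer membrane, at -0.99 ± 0.38 (SE, n = 5 and 3; limma adjusted p = 0.600). Heme and iron-sulfur cluster genes, the users of the iron imported by mitoferrins, had a median of -0.78 with 12 of 14 negative and 2 lower. The brightest were Iscu, the scaffold of cluster assembly, at -0.73 ± 0.31 and Urod at -0.14 ± 0.39 (SE, n = 5 and 3, limma adjusted p = 0.684 and 0.970). Enzymes of the malate-aspartate shuttle and urea cycle had a median of -0.30 with 8 of 11 negative and 1 lower, namely the cytosolic malate dehydrogenase Mdh1 at -0.74 ± 0.23 (SE, n = 5 and 3; limma adjusted p = 0.389). Outer membrane channels and import genes had a median of -0.24 with 0 lower and 0 higher at that level, and their brightest were Vdac1 at -0.38 ± 0.24 and Vdac2 at -0.22 ± 0.24 (SE, n = 5 and 3). Inner membrane transporters outside the family had a median of -0.14 with 3 of 14 lower. The brightest, Smdt1, was at -0.12 ± 0.32, and Letm1, a cation exchanger among the lower ones, at -0.72 ± 0.29 (SE, n = 5 and 3, limma adjusted p = 0.970 and 0.631). The uncoupling proteins and Mtch genes, kin of the family under other names, had a median of -0.037 over 4 genes, with Mtch1 at 0.41 ± 0.49 and Mtch2 at -0.26 ± 0.18 (SE, n = 5 and 3). Regulators of mitochondrial genes had a median of 0.027, with 3 of 13 lower and 1 higher at that level, with Gabpa at -0.12 ± 0.23 and Tfam at 0.077 ± 0.78 as the brightest (SE, n = 5 and 3). Of them, Ppargc1a, a coactivator of mitochondrial biogenesis, was at -3.24 ± 0.46 (SE, n = 5 and 3, limma adjusted p = 0.122). Its relatives did not share this fall. Pprc1, the 1 higher gene, was at 1.35 ± 0.30 and Ppargc1b at -0.30 ± 0.42 (SE, n = 5 and 3, limma adjusted p = 0.183 and 0.958).

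**Figure D5:**
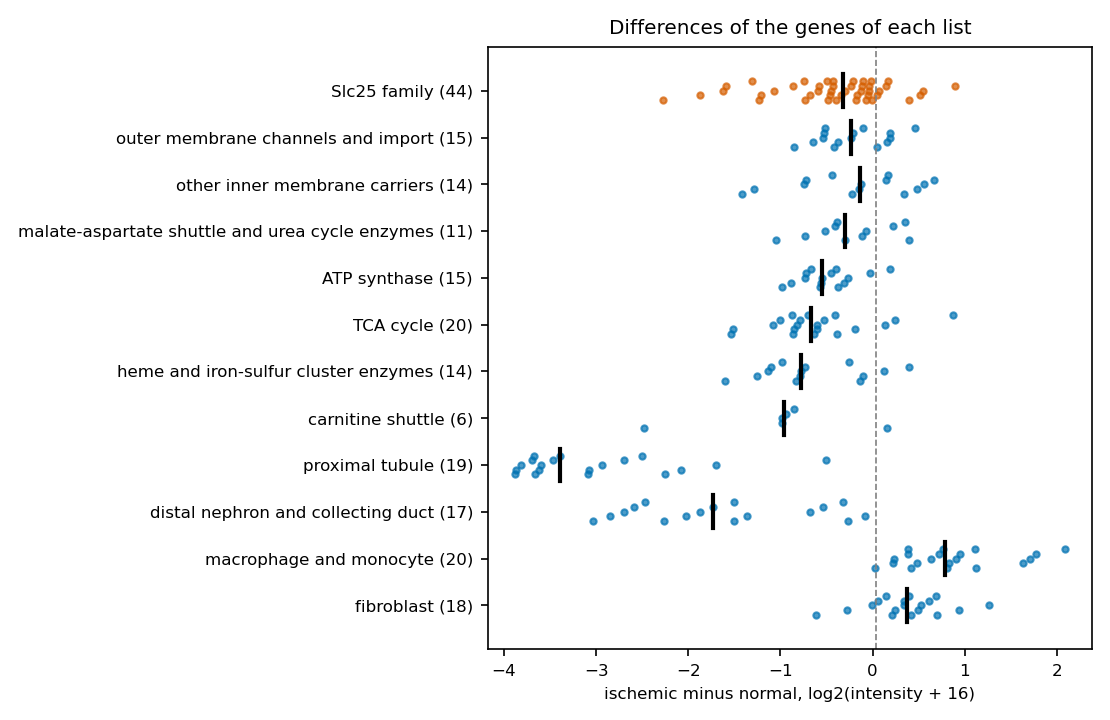
Ischemic minus normal difference, in log2(intensity + 16), of each gene of the Slc25 family and of other lists, with the number of genes in brackets, black bars for the median and a dashed line for the median of all genes. The Slc25 median of -0.32 lies between that of outer membrane genes (-0.24) and that of ATP synthase (-0.54), and proximal tubule markers lie far lower at -3.39.

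Markers of kidney tubule cells differed in the same direction as most carriers. All 19 measured proximal tubule markers were negative, with a median of -3.39, where 45.2% of all genes were negative. At an unadjusted limma p under 0.05, 18 of them were lower, against 5.02% of all genes. Their summed intensity ran from 4767 to 7907 in ischemic and from 19396 to 44463 in normal arrays. Their mean levels spanned 8.08 to 11.96 in the normal group and 4.76 to 10.81 in the ischemic group, and the brightest were the water channel Aqp1 at -0.51 ± 0.45 and Acsm2 at -2.50 ± 0.48 (SE, n = 5 and 3; limma adjusted p = 0.940 and 0.149). All 17 distal nephron and collecting duct markers were negative with a median of -1.73, with sums from 2943 to 3850 in ischemic and from 8148 to 9000 in normal arrays. Macrophage and monocyte markers went the other way, with all 20 positive, a median of 0.79, and sums from 24326 to 38849 in ischemic and from 15282 to 21670 in normal arrays. Cell division genes were all positive too (15 of 15, median 1.10). Their part in the carriers' differences was not tested. In such sorted bulk samples, fewer cells of a type and less RNA per cell cannot be told apart. Fibroblast markers had a median of 0.37 over 18 genes, and endothelial markers of -1.08 over 10, with 0 lower or higher at that level in both.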

How the data were processed

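RNA of sorted FSP1-GFP-positive kidney cells was measured on 8 Affymetrix mouse genome arrays (5 ischemic, 3 normal by title). The authors deposited 1 linear intensity per probe set; the software that made these values is not given in the sources used here. Here, log2(intensity + 16) was quantile normalized over probe sets other than 64 controls. Of 45101 probe sets, 34945 had 1 gene symbol, 932 several and 9160 were not listed. The probe set of highest mean stood for each gene. Groups were compared with limma 3.58.1 (lmFit, eBayes; R 4.3.3) and Benjamini-Hochberg adjustment over 18193 genes, and the procedure was tested on simulated data. Array checks used exact permutation tests. Members given array by array were Slc25a3, Slc25a4 and Slc25a5, and those with bright probe sets over 1 apart. Also given were up to 8 of largest difference in each direction whose higher group reached the median level of all genes. Fewer than 8 members with a positive difference met this. Slc25a2, Slc25a34, Ppargc1b, Pprc1 and the members given by range were added after their values were seen. Other lists are named by their 2 brightest genes at most, apart from Ppargc1a, Ppargc1b, Pprc1 and the erythroid list. The members and lists were chosen with earlier results of these data known. Alternatives covered scaling, pseudocount, level filters, probe set choice, variance model, array weights, blocks, Xist signal and each array left out. Figures used Python 3.11.15 and matplotlib 3.10.9.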

Additional observations from a re-analysis of the deposited data

Results flagged for a closer look

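Within the ischemic group, 8 of 44 members had 1 array whose gap to its nearest neighbour exceeded Dixon's critical share of the group's range for 5 arrays, where chance flags about 1 in 20 groups. Ischemic 1 was the array apart in 5 of them. It was high in Slc25a44 (8.51, gap 0.918 of the range), Slc25a34 (8.23, gap 0.835) and Slc25a38 (7.18, gap 0.806), and low in Slc25a4 (9.03, gap 0.867) and Slc25a20 (6.29, gap 0.750). Ischemic 4 was low in Slc25a45 (4.16, gap 0.833) and high in Slc25a48 (5.51, gap 0.797). Ischemic 3 was high in Slc25a41 (4.42, gap 0.779), a gene near the floor on all arrays. Without ischemic 1 the difference of Slc25a20 was 0.027 and that of Slc25a38 was -0.16, against -0.40 and 0.043 with it.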

How the results depend on the processing

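No member passed an adjusted limma p of 0.05 under any of 23 alternatives, where the lowest was 0.0897. Over all 44 members, 88 of 977 values reversed, of which 30 of 630 were in the 28 members listed here. With arrays centred on ribosomal protein genes, 14 members were lower and 0 higher at an unadjusted limma p under 0.05, where 7.89% of all genes were lower. These reference genes had a median difference of 0.21 on the quantile scale, so that centring on them lowers other genes. In 10 members the groups were then apart (5.85% of all genes). Slc25a38 was -0.16 and Slc25a46 -0.23 with that reference, and with median centring these were -0.061 and -0.13. The count of members higher fell from 1 to 0 also with a pseudocount of 64, filters at the 40th or 60th percentile, an eBayes trend or robust fit, array weights, the replicate block and either Xist class. The filter at the 60th percentile kept 20 members, 17 of them negative. The groups were apart in 3 of them, all lower (15%, against 4.4% of the genes kept). With the mean of all probe sets, Slc25a25 was -0.10, Slc25a4 minus Slc25a5 was -0.17 and Slc25a33 minus Slc25a36 was 0.24. Preferring probe sets without a suffix gave 0.078 for Slc25a39 (a set near the floor), 0.12 for Slc25a36, 0.22 for Slc25a27 and 0.14 for Slc25a5, and -0.51 for Slc25a4 minus Slc25a5, 1.70 for Slc25a39 minus Slc25a40 and 0.044 for Slc25a33 minus Slc25a36. Array weights left 27 of 44 members negative, with a median of -0.16, and gave 0.090 for Slc25a28, 0.12 for Slc25a12 and -0.21 for Slc25a38. Same-numbered arrays were not paired by the labels, and their deviations correlated at 0.16, -0.088 and 0.10. With the replicate block 3 of 44 members were lower at an unadjusted limma p under 0.05, where 5.29% of all genes were, and Slc25a24 was -0.34. Arrays of low Xist signal gave 13 members with groups apart lower and 2 higher (10.3% and 10.5% of all genes), and Slc25a20 0.17, Slc25a28 0.63, Slc25a12 0.17 and Slc25a38 -0.29. Those of high signal, 2 arrays against 1, gave 27 and 4 (32.9% and 34.9% of all genes), and Slc25a46 -0.19. With each array left out in turn, 5 to 8 members were lower (3.32% to 6.16% of all genes were) and 0 to 1 higher. Groups were apart in 5 to 10 members lower and 0 to 1 higher. There were 10 lower without normal 2, 8 without ischemic 3 and 8 without normal 3, where 4.81%, 4.46% and 7.88% of all genes were. Between 30 and 37 members were negative, and the members' median was -0.41 to -0.23. The S100a4 difference was 0.37 with all 8 arrays and did not pass the exact permutation test (p = 0.143). It ranged from 0.22 to 0.53, and was 0.47 without ischemic 1, where it passed that test. The array median's difference was -0.056 to 0.043, above 0 without ischemic 2 (0.0058), ischemic 4 (0.019) or normal 3 (0.043). The range over single arrays left out spanned 0 in 19 of 44 members, 7 of them among these 28. Slc25a12 ran from -0.59 to 0.31 (above 0 without ischemic 1, or normal 2 at 0.0082), Slc25a20 from -0.83 to 0.027 and Slc25a28 from -0.69 to 0.26 (both above 0 without ischemic 1), and Slc25a27 from -0.99 to 0.13 and Slc25a46 from -0.19 to 0.23 (reversed without normal 2). Slc25a38 ran from -0.16 to 0.12 (below 0 at -0.16 without ischemic 1 and -0.064 without normal 1), and Slc25a24 from -0.44 to 0.63 (below 0 without normal 1, and at -0.098, -0.034 and -0.037 without ischemic 3, 4 and 5). Slc25a11 was -0.30 and Slc25a23 -0.34 without ischemic 4, and Slc25a18 was 0.14 without ischemic 2 and 0.61 without ischemic 1. The cause of these changes was not tested. Dim members lie near the floor of the scale, where differences are compressed.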
